A study of Homo sapiens with 36 samples.

Results

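Homologous recombination and Fanconi anaemia genes were followed by RNA-seq in HCT-116 cells, a human colorectal carcinoma line. They were chosen by name, as 43 genes of these repair routes, out of 62757 genes in the count tables. The rule used names alone, but it was set with earlier results of these data known. The cells were WT or carried FBXW7-/- (KO), the loss of FBXW7, which picks the substrates of a ubiquitin ligase. All cells were handled for 48 h. KO cells were transfected with esiCT, a control esiRNA, or with esiHDAC4, an esiRNA against HDAC4. Another KO condition received PROTAC #11 with esiCT. PROTACs are small molecules that recruit a ubiquitin ligase to a protein and so lead to its degradation, and #11 is directed at class IIa HDACs. The label entries for #11 give 1 µM in one place and 10 µM in another. Each KO condition was left untreated or received oxaliplatin (OXPT), a platinum drug that crosslinks DNA, at 50 µM for the last 24 h. WT cells formed 2 groups, untreated and OXPT. For these 6 WT libraries the title names the control esiRNA and the treatment entry names esiHDAC4, so their esiRNA is not known here. The 8 groups had 3 libraries each. A further 12 WT libraries carry label entries with opposite OXPT states and entered no comparison. The KO cells are described as 1 edited line with a short deletion, so a difference between KO and WT cannot be told apart from a difference between lines. The study's methods speak of independent experiments for its figures in general. Neither they nor the labels say this of the libraries of a group, so the p-values measure the spread between these libraries, which may be technical.

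Homologous recombination copies the lost sequence of a broken DNA molecule from an intact sister. The ends are cut back, the exposed single strand is coated by RPA, mediators such as BRCA2 prepare it for strand exchange, and joined molecules are finally dissolved or cut. The Fanconi anaemia route recognises crosslinks between the strands: its core complex and the E2 enzyme UBE2T attach ubiquitin to FANCD2 and FANCI, and the lesion is then unhooked and handed to recombination. Many of these genes are transcribed mainly in S and G2 phase, and platinum drugs make the lesions that both routes repair.

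The libraries held 10725966 to 20527222 counts on genes (median 14510758), and 7.74% to 22.3% of their reads were unmapped. Levels are given as CPM, the counts of a gene scaled to the library total by TMM. HDAC4 stood at 18.4, 14.0 and 24.9 CPM in KO esiCT cells and at 8.94, 8.80 and 14.9 CPM in KO esiHDAC4 cells, a log2 difference of -0.82 (adjusted p = 0.561). In WT cells HDAC4 stood at 18.8, 25.6 and 21.6 CPM untreated and at 8.49, 8.44 and 10.0 CPM with OXPT. With OXPT it stood at 6.28, 5.71 and 7.50 CPM in KO esiCT and at 4.13, 3.33 and 4.19 CPM in KO esiHDAC4 cells. Which esiRNA the WT libraries received was not tested. FBXW7 stood at 15.4, 17.2 and 18.1 CPM in KO esiCT cells and 16.9, 23.5 and 22.8 CPM in WT cells, so the gene counts do not check the deletion. Of the 8 epithelial markers 7 were present in every library, with EPCAM at 215 to 360 CPM, and VIL1 reached at most 0.481 CPM. Of the 9 markers of other cell types, COL1A1 reached 77.6 CPM and ACTA2 11.7 CPM, and PTPRC, CD3E and LYZ stayed under 0.297 CPM. In such bulk samples, fewer cells of a type and less RNA per cell cannot be told apart.

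The libraries numbered 3 differed more from numbers 1 and 2 than these differed from each other in every group but untreated KO esiHDAC4. In the WT, KO esiCT and KO esiHDAC4 groups their values were lower for long transcripts, members included. In KO esiCT OXPT cells, 19 of 42 members were more than 2-fold lower in number 3 than in the mean of numbers 1 and 2, beside 16.1% of all genes tested. The corresponding counts were 19 in WT, 16 in WT OXPT and 8 in KO esiCT cells, beside 18.1%, 19.5% and 5.67% of all genes. With esiHDAC4 they were 2 in untreated and 17 in OXPT cells, beside 0.461% and 12.6%. In the groups with #11 they were 2 and 0, beside 0.664% and 0.801%. Unmapped reads were 22.3% in KO esiCT OXPT number 3 (9.46% and 9.74% in numbers 1 and 2), 13.8% in WT number 3 (8.21% and 7.74%), 13.4% in KO esiHDAC4 OXPT number 3 (10.5% and 9.73%) and 11.9% in WT OXPT number 3 (9.95% and 9.06%). In the other 4 groups number 3 held 8.92% to 10.3%, and numbers 1 and 2 held 8.02% to 10.1%. The part of unmapped reads in the members' values was not tested. Across the 42 members, the rank correlation of this gap with transcript length was -0.55 in KO esiCT OXPT and -0.49 in WT cells, but 0.25 in untreated #11 and -0.05 in #11 OXPT cells. These points share libraries, and the correlations are descriptions. WT number 3 without OXPT also held a sum of 5932 CPM of p53 targets, where the lowest library of its group held 1187 CPM. For each comparison the number of members called is therefore also given without the libraries numbered 3, a choice made after seeing the data.

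**Figure D1:**
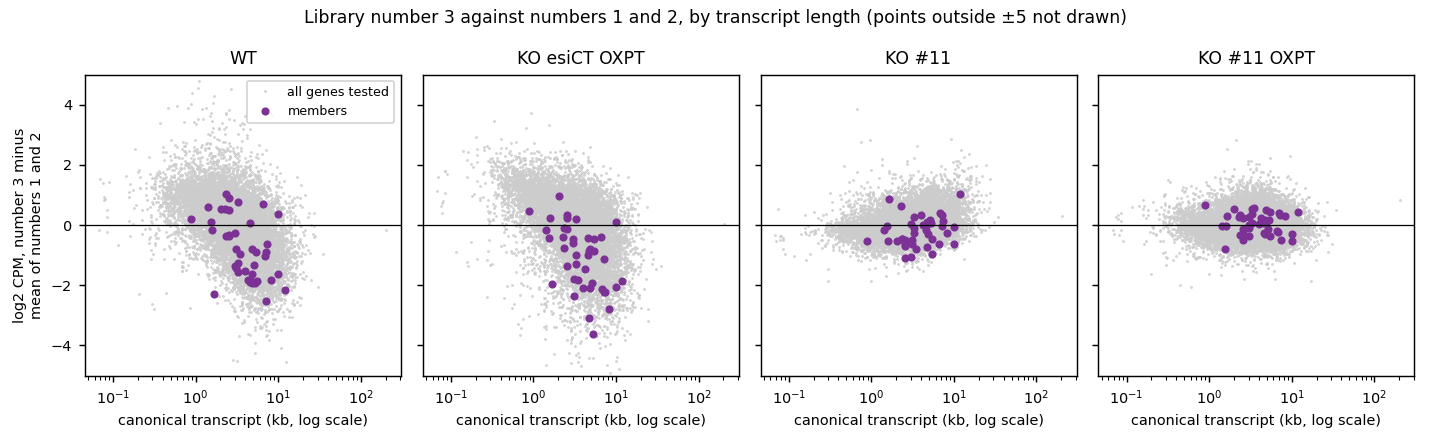
Gap between the library numbered 3 and the mean of numbers 1 and 2 (log2 CPM, y axis) against the length of the canonical transcript (log axis) for the 42 members tested, in 4 groups. In WT and KO esiCT OXPT cells the gap was lower for longer transcripts (rank correlation -0.49 and -0.55), whereas in untreated #11 and #11 OXPT cells it was 0.25 and -0.05.

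Promoter windows are shown for the 3 members that changed with OXPT in both WT and KO esiCT cells (RAD51B, NABP1 and FANCC) and for the other 2 that changed in KO esiCT cells (EME1 and RAD51C). Each window holds the 250 bases before and 50 after the transcription start, 5′ to 3′ on the strand of the gene. RefSeq windows (GRCh38.p14) were found for 36 of the 43 members, and not for NBN, FANCI, RPA2, RMI2, RPA3, RAD54B and DNA2. The RefSeq window of RAD51B starts 3762 bases from the GENCODE 44 canonical start, so its sequence was read from hg38 at that start. The windows are chr14:67819529-67819828 (plus strand) for RAD51B, chr2:191677886-191678185 (plus) for NABP1, chr9:95317660-95317959 (minus) for FANCC, chr17:50372979-50373278 (plus) for EME1 and chr17:58692352-58692651 (plus) for RAD51C. Capitals mark matches to 3 kinds of letters searched on both strands: those bound by E2F factors (TTTCCCGC, TTTCGCGC, TTTGCCGC or TTTGGCGC), the CHR element (TTTGAA or TTCGAA) and the CCAAT box (CCAAT).
RAD51B: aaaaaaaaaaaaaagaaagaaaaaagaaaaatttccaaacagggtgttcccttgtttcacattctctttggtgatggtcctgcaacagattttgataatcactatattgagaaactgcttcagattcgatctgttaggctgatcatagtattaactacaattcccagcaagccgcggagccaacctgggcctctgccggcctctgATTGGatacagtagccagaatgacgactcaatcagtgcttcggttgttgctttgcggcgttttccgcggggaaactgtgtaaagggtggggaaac
NABP1: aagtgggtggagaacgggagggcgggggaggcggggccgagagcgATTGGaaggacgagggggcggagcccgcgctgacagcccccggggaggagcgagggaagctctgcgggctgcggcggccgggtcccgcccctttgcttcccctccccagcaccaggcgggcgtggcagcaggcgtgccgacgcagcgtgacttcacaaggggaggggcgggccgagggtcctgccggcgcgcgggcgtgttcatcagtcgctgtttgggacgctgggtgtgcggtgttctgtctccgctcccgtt
FANCC: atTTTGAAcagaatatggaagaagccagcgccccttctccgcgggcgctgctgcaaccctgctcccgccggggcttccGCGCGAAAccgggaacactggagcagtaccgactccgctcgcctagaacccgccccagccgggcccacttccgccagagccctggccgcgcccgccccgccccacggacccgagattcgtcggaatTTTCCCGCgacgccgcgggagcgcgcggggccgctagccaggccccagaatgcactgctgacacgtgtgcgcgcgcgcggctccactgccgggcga
EME1: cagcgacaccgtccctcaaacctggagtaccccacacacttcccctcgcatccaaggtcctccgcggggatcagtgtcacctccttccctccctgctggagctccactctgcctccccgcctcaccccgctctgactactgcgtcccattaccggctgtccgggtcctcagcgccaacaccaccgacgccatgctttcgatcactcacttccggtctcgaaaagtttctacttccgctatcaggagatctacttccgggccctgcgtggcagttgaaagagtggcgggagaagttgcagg
RAD51C: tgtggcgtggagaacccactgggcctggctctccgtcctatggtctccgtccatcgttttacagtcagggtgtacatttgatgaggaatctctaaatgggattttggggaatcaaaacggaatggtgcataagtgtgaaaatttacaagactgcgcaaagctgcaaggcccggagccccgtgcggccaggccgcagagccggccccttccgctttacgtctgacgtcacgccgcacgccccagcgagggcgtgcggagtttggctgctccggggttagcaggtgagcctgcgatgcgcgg

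FANCC held 2 E2F matches and 1 CHR match. RAD51B and NABP1 each held the CCAAT box on the opposite strand (ATTGG), and EME1 and RAD51C held none of these letters. E2F letters were found in 6 of the 36 members with a RefSeq window (16.7%) and in 3.37% of all 27305 windows. The 6 were EXO1, FANCD2, XRCC2, RMI1, FANCC and FANCA. CHR letters were found in 11.1% of members and 16.3% of all windows, and CCAAT in 41.7% and 35.7%. A match describes letters only. It names no bound factor, and a window without a match says nothing of one.

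Of the 43 members, 42 were tested among 12356 genes with a mean of at least 64 counts in 1 or more groups. RAD50, a subunit of the complex that first binds broken ends, did not reach it in any group, and stood at 0.658 to 3.06 CPM. The 2 genes that overlap it share 76.9% of its exon bases, and such reads count as ambiguous. In all, 35 members reached the minimum in every group and 7 in some groups. RAD51B, RAD54B and FANCB reached it in untreated groups alone, so that for a member such as RAD51B a fall with OXPT was built into its passing. Per kilobase of canonical transcript, UBE2T had the highest level in KO esiCT cells, 67.9 ± 5.88 CPM per kb (SD, n = 3). The DNA-coating subunits RPA2 (49.7 ± 4.51) and RPA1 (39.4 ± 5.52) followed, and these neighbours differed by more than their SDs. RAD51C (23.5 ± 4.13) and RPA3 (20.4 ± 1.17) came next and did not. At the other end stood FANCM (0.846 ± 0.363), BRCA2 (0.570 ± 0.326) and RAD50 (0.224 ± 0.0582). FANCM and BRCA2 differed by less than their SDs. BRCA2, the large mediator of strand exchange, was thus among the least abundant transcripts per length, with 6.82 CPM.

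With OXPT, most members had lower values in all 4 backgrounds, but few passed the test. The test was edgeR's quasi-likelihood test, with calls at a p under 0.05, adjusted by Benjamini-Hochberg across all genes of the fit, with more than a 1.5-fold change. In KO esiCT cells 3 members fell (RAD51B, FANCC and EME1; 7.14% of those tested, beside 5.08% of all genes) and 2 rose (NABP1 and RAD51C; 4.76% beside 6.23%). In WT cells 6 fell (RAD51B, RMI1, BARD1, FANCC, RPA3 and XRCC3; 14.3% beside 5.6%) and NABP1 rose (2.38% beside 5.1%). In KO esiHDAC4 cells 5 fell (RAD51B, RPA3, FANCC, EME1 and UBE2T; 11.9% beside 5.54%) and 2 rose (NABP1 and RAD51C; 4.76% beside 6.44%). In #11 cells 2 fell (RAD51B and FANCC; 4.76% beside 3.57%) and RAD51C rose (2.38% beside 5.94%). The shares of members called lower were thus near the background in KO esiCT and #11 cells and above it in WT and KO esiHDAC4 cells. In all, 10 members were called in at least 1 background and 2, RAD51B and FANCC, in all 4. Calls shared by KO esiCT and WT cells were 60% of the former and 42.9% of the latter. The same counts and shares over all genes are not given here, so these are descriptions and no result about the members. They include RAD51B, for which a fall was built in. Without RAD51B, RAD54B and FANCB, the lower calls among the other 39 members were 2 in KO esiCT, 5 in WT, 4 in KO esiHDAC4 and 1 in #11 cells.

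The direction was more uniform than the calls. Log2 fold changes were negative for 36 of 42 members in KO esiCT cells, where 49.2% of all genes were negative. They were negative for 36 in WT, 34 in KO esiHDAC4 and 31 in #11 cells, beside 54.6%, 48.6% and 50.2% of all genes. These counts include RAD51B, RAD54B and FANCB, and without them 33, 33, 31 and 29 of the other 39 were negative. The median of the members was -0.54 in KO esiCT, -0.67 in WT, -0.56 in KO esiHDAC4 and -0.30 in #11 cells, and that of all genes lay between -0.06 and 0.02. For the 39 it was -0.52, -0.67, -0.54 and -0.30. In all 4 backgrounds 27 members were negative and 3 positive (RAD51C, NABP1 and FANCE). The libraries of the groups did not overlap for 14 members in KO esiCT, 13 in WT, 23 in KO esiHDAC4 and 16 in #11 cells. These were 33.3%, 31%, 54.8% and 38.1% of the members tested, beside 30.1%, 21.3%, 35.4% and 42.5% of all genes. The members' share was thus near that of all genes in KO esiCT, above it in WT and KO esiHDAC4 and below it in #11 cells. These shares include RAD51B, RAD54B and FANCB, for which a fall was built in. With the libraries numbered 3 left out, 31 members were negative in KO esiCT, 36 in WT, 34 in KO esiHDAC4 and 34 in #11 cells, with medians of -0.51, -0.73, -0.49 and -0.46. The groups, then of 2 libraries each, did not overlap for 32, 34, 31 and 35 members, beside 61.4%, 57%, 54.7% and 75% of all genes.

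**Figure D2:**
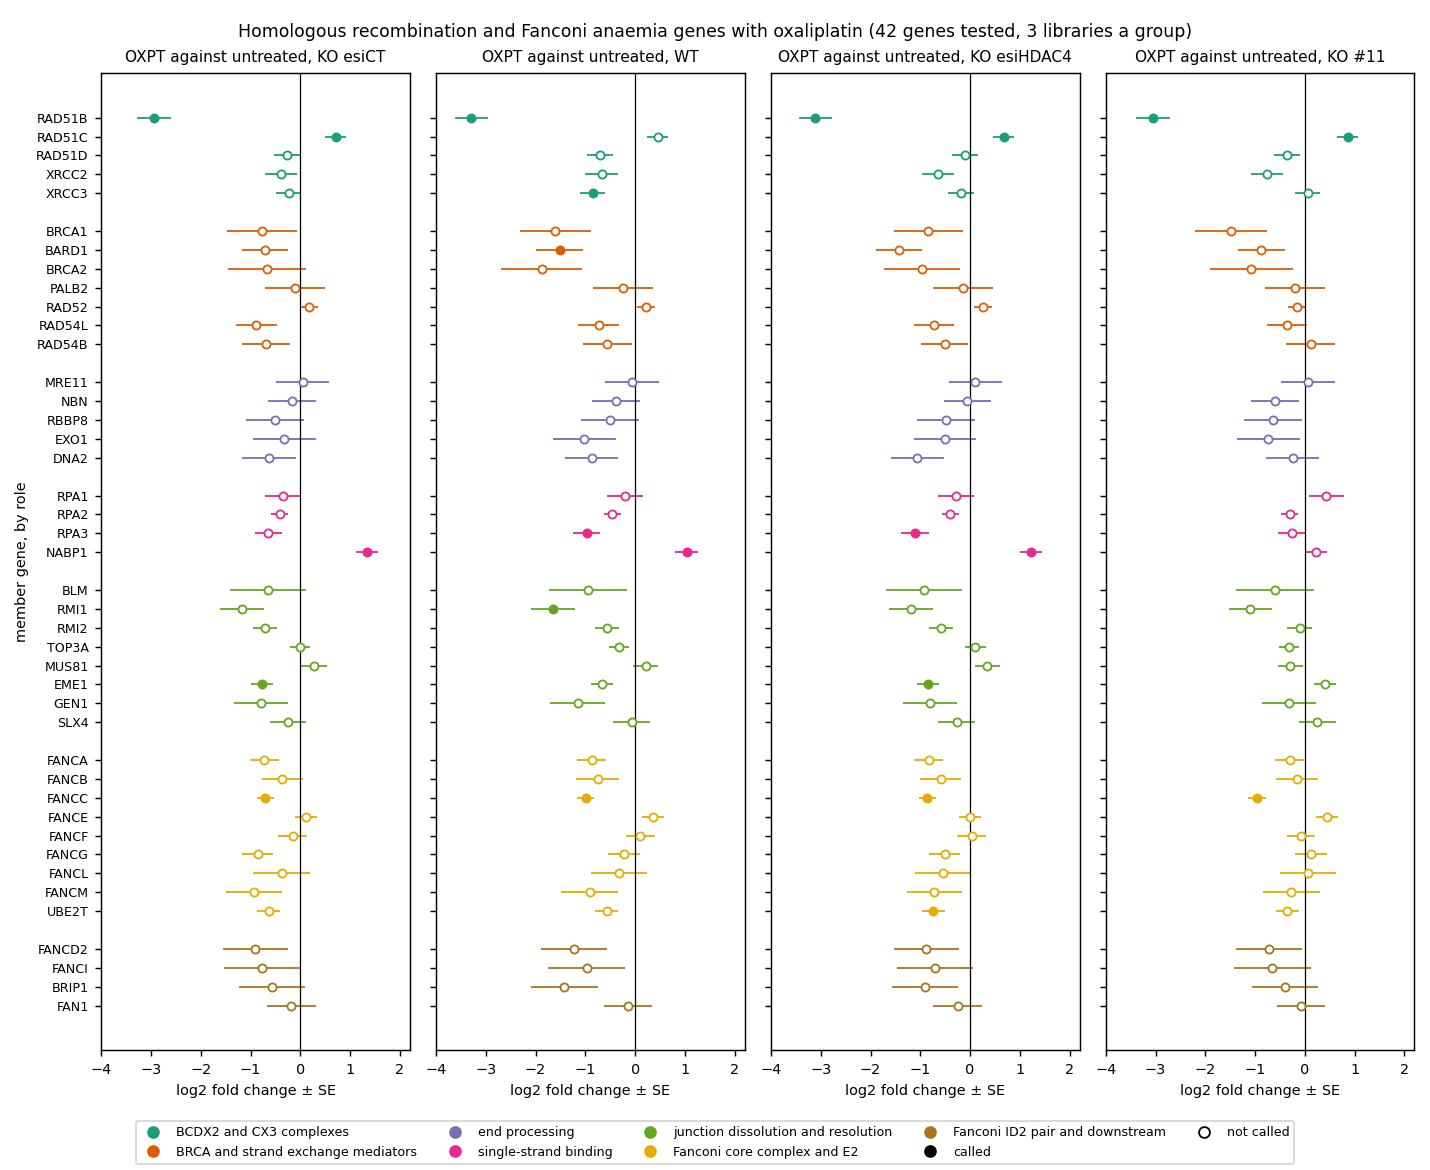
Log2 fold change with OXPT (x axis) of the 42 members tested, ordered by role, in KO esiCT, WT, KO esiHDAC4 and #11 cells (4 panels). Points are edgeR estimates with SE, and filled points passed the test. Most points lie left of 0, with RAD51B between -3.29 and -2.94 and NABP1 at 1.34, 1.03, 1.22 and 0.22.

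These counts depended on the libraries numbered 3 and on the pairing. Libraries of the same number deviated together in these comparisons, and with the number as a block 10 members were called in KO esiCT, 11 in WT, 11 in KO esiHDAC4 and 4 in #11 cells, beside 15.7%, 15.3%, 16.7% and 13.9% of all genes. The block added RMI1, RAD54L, FANCG, FANCA and RMI2 in KO esiCT, BRCA1, FANCD2, FANCA and EME1 in WT, BARD1, RMI1, FANCA and XRCC2 in KO esiHDAC4 and XRCC2 in #11 cells, all lower. Without the libraries numbered 3, the members called were 7 in KO esiCT, 23 in WT, 10 in KO esiHDAC4 and 11 in #11 cells, beside 17.4%, 20.9%, 18% and 22.9% of all genes. The 23 in WT comprised 21 lower, among them BRCA1, BRCA2, BARD1, BRIP1, GEN1 and FANCD2. Among the 24 members called in at least 1 background in that setting, 4 were called in all: RAD51B, FANCC and RPA3 were lower, and the fourth was UBE2T, also lower.

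RAD51B, RAD51C, RAD51D, XRCC2 and XRCC3 form 2 small complexes, BCDX2 and CX3, that assist strand exchange. They moved in different directions. RAD51B (chr14:67819779-68730218, plus strand) is the longest member gene, with 910440 bases. It stood at 3.55, 4.22 and 3.89 CPM in KO esiCT cells and at 0.343, 0.795 and 0.357 CPM with OXPT. In WT cells it stood at 4.33, 4.81 and 4.94 CPM, and at 0.378, 0.469 and 0.585 CPM with OXPT. Every OXPT library lay below every untreated library in both pairs of groups. RAD51B reached the minimum count in untreated groups alone, so a fall with OXPT was built into its being tested. Its lack of overlap and its p-values therefore describe the fall and are no separate evidence of it. RAD51B held 3 to 11 counts in each OXPT library of the 4 backgrounds, so counting error is large there. The log2 fold change was -2.94 ± 0.340 (SE; adjusted p = 1.15e-05) in KO esiCT and -3.29 ± 0.337 (adjusted p = 3.25e-06) in WT cells. It was -3.11 in KO esiHDAC4 and -3.05 in #11 cells, where the libraries did not overlap either. The drop was thus to between 0.102 and 0.130 of the untreated level in all 4 backgrounds.

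RAD51C (chr17:58692573-58735611), which takes part in both complexes, went the other way. It stood at 64.9, 67.4 and 48.0 CPM in KO esiCT cells and at 95.3, 86.3 and 114 CPM with OXPT. In WT cells it stood at 50.8, 52.0 and 73.5 CPM, and at 81.6, 79.5 and 79.2 CPM with OXPT. The groups did not overlap in either genotype. The log2 fold change was 0.71 ± 0.213 (adjusted p = 0.0341) in KO esiCT, 0.68 ± 0.213 (adjusted p = 0.0422) in KO esiHDAC4 and 0.86 ± 0.214 (adjusted p = 0.0139) in #11 cells. In WT cells it was 0.45 and did not pass. The call in KO esiCT cells was lost when any 1 of 5 libraries, all of its own 2 groups, was left out (adjusted p from 0.0526 to 0.143), and the value was 0.46 without the libraries numbered 3. Left out 1 at a time, 10 libraries ended the call in KO esiHDAC4 and 3 in #11 cells (adjusted p up to 0.182 and 0.0764). XRCC3, a partner of RAD51C, stood at 33.9, 21.5 and 50.3 CPM in WT cells and at 19.2, 18.7 and 20.5 CPM with OXPT, a log2 fold change of -0.85 ± 0.255 (adjusted p = 0.0355). It was -0.50 (adjusted p = 0.152) without the untreated WT library numbered 3, and each of the other WT libraries but untreated number 2 also ended the call when left out. KLC1 on the other strand shares 76.7% of its exon bases, so its counts are uncertain. RAD51D and XRCC2 lay between -0.75 and -0.10 in the 4 backgrounds and did not pass.

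Among the BRCA genes and other mediators, BARD1, the partner with which BRCA1 forms a ubiquitin ligase, fell in WT cells. It stood at 10.3, 19.7 and 3.85 CPM untreated and at 4.70, 4.29 and 2.85 CPM with OXPT, so that the groups overlapped through the untreated library numbered 3. This gave a log2 fold change of -1.52 ± 0.474 (adjusted p = 0.0434). It was -0.86 (adjusted p = 0.308) without the untreated library numbered 2, and 15 of the 24 libraries, left out 1 at a time, ended the call. BRCA1 stood at 12.8, 33.5 and 11.0 CPM in WT cells and at 9.35, 8.17 and 1.24 CPM with OXPT. In KO esiCT cells it stood at 26.3, 28.3 and 6.99 CPM, and at 14.6, 17.8 and 3.33 CPM with OXPT. In each of these 4 groups the library numbered 3 was the lowest. BRCA1 had log2 fold changes of -1.61 in WT and -0.77 in KO esiCT cells, and BRCA2 of -1.88 and -0.67, and neither passed the test in these 2 backgrounds. RAD54L, a motor protein of strand exchange, had -0.88 in KO esiCT cells and did not pass. PALB2, which bridges BRCA1 and BRCA2, lay between -0.24 and -0.11. RAD52, an annealing protein, was at 12.8, 13.8 and 14.4 CPM in KO esiCT cells and 18.6, 15.4 and 12.3 CPM with OXPT.

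Of the end processing members, which cut back broken ends, none passed the test with OXPT. The count at an unadjusted p under 0.05 over all members was 13 in KO esiCT and 19 in WT cells (31% and 45.2%, beside 26.1% and 24.7% of all genes). MRE11, the nuclease of the end-binding complex, lay between -0.06 and 0.11 on the log2 scale in the 4 backgrounds. Its partner NBN lay between -0.61 and -0.06, and RBBP8, which starts resection together with them, between -0.64 and -0.49. The long-range nucleases EXO1 and DNA2 had -1.02 and -0.87 in WT cells, and -0.32 and -0.63 in KO esiCT cells.

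The single-strand binding members split. NABP1 (chr2:191678068-191741097, plus strand), a protein that coats single-stranded DNA in a complex apart from RPA, rose. It stood at 23.3, 22.5 and 26.8 CPM in KO esiCT cells and at 69.8, 63.5 and 50.7 CPM with OXPT. In WT cells it stood at 21.0, 27.4 and 35 CPM, and at 56.9, 59.9 and 53.5 CPM with OXPT. No OXPT library overlapped the untreated ones in these groups. NABP1 thus had a log2 fold change of 1.34 ± 0.226 (adjusted p = 0.000574) in KO esiCT, 1.03 ± 0.225 (adjusted p = 0.00477) in WT and 1.22 ± 0.225 (adjusted p = 0.00111) in KO esiHDAC4 cells. In #11 cells it was 0.22 and did not pass. On the same strand, 2 unnamed genes share 20.8% of its exon bases.

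RPA3, the smallest RPA subunit, fell in 2 backgrounds. It stood at 44.2, 30.8 and 52.9 CPM in WT cells and at 21.9, 17.6 and 25.4 CPM with OXPT (log2 fold change -0.98 ± 0.274, adjusted p = 0.0247). In KO esiHDAC4 cells it stood at 37.2, 46.3 and 45.8 CPM, and at 19.4, 18.1 and 22.6 CPM with OXPT (-1.11 ± 0.274, adjusted p = 0.0107). The libraries did not overlap in either pair of groups. The call in WT cells ended without number 1 or 2 of the OXPT or number 1 or 3 of the untreated libraries (adjusted p from 0.0615 to 0.102), and that in KO esiHDAC4 cells without OXPT number 2 (0.0567). In KO esiCT cells RPA3 stood at 40.6, 39.2 and 43.8 CPM, and at 19.0, 20.9 and 39.4 CPM with OXPT, where the library numbered 3 lay near the untreated ones. Its log2 fold change there was -0.65 and did not pass. RPA2 stood at 76.5, 86.6 and 72.8 CPM in KO esiCT cells and 61.1, 50.5 and 65.7 CPM with OXPT, a log2 fold change of -0.41. It lay between -0.46 and -0.31 in the 4 backgrounds, did not pass, and its groups did not overlap in KO esiCT cells.

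**Figure D3:**
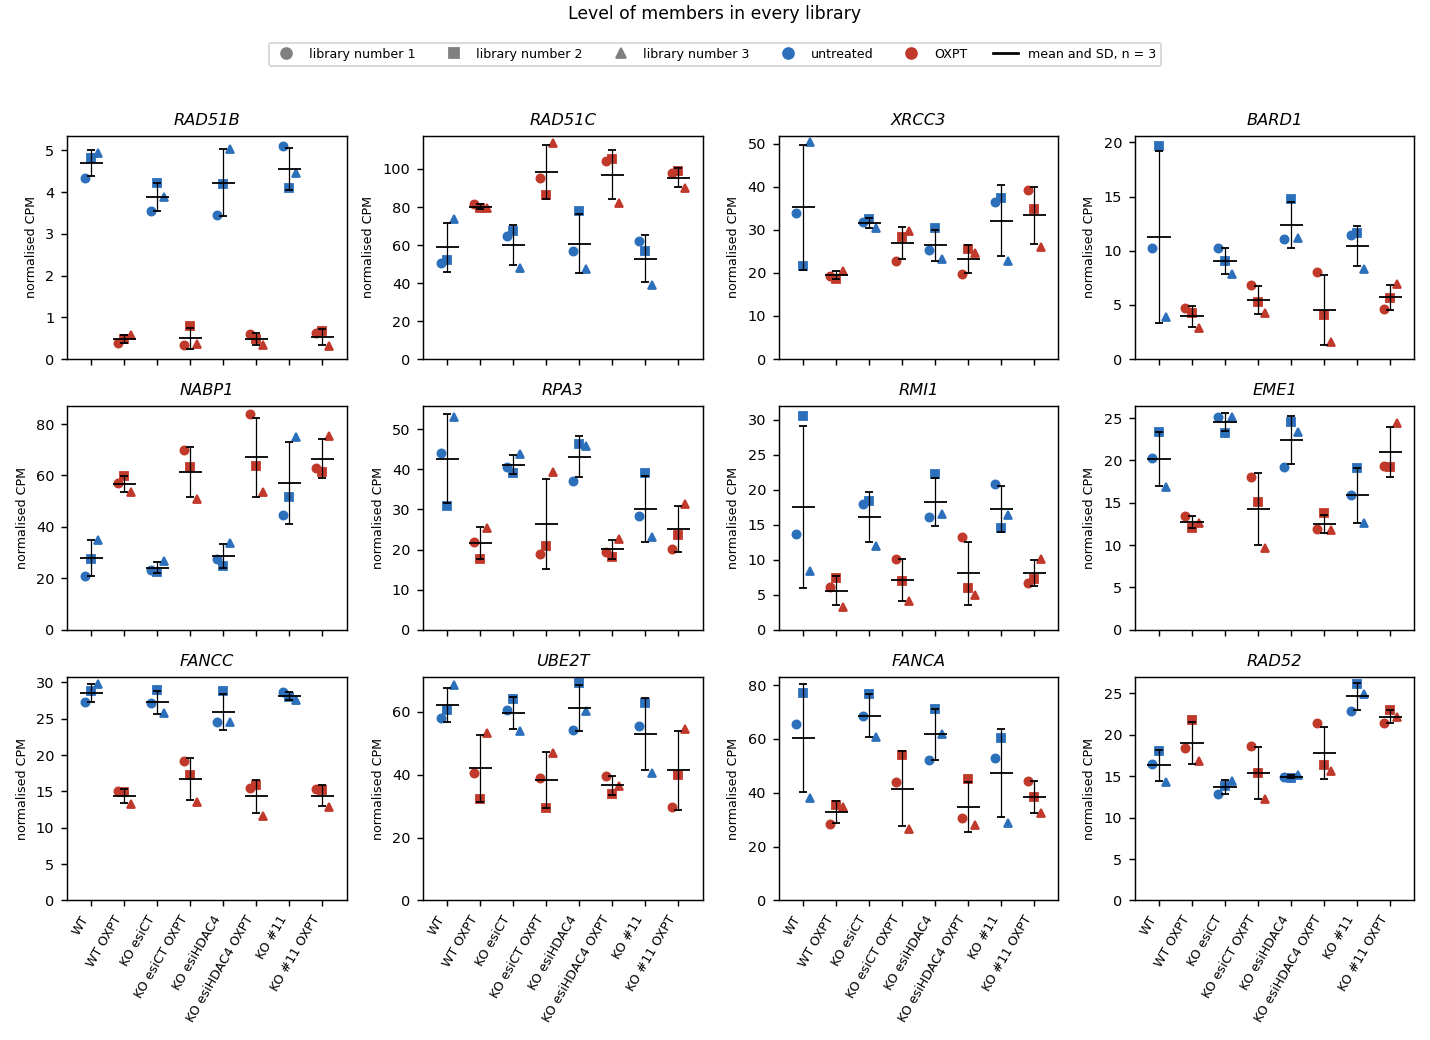
Level (CPM) of 12 members in every library of the 8 groups, with circles for number 1, squares for number 2 and triangles for number 3, and the mean with SD as bars. RAD51B lies under 0.8 CPM in every OXPT library and above 3.4 CPM in every untreated one. NABP1 is higher with OXPT in the WT, KO esiCT and KO esiHDAC4 groups and higher without OXPT in #11 cells than in KO esiCT cells.

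Junction members dissolve or cut the joined DNA molecules. RMI1, a scaffold of the BLM dissolvase, stood at 13.6, 30.6 and 8.39 CPM in WT cells and at 6.11, 7.37 and 3.29 CPM with OXPT. The groups did not overlap, and the log2 fold change was -1.65 ± 0.445 (adjusted p = 0.0196). It was -0.99 (adjusted p = 0.169) without the untreated WT library numbered 2 and -1.38 (adjusted p = 0.0940) without the WT OXPT library numbered 3. RMI1 in KO esiCT cells stood at 18.0, 18.4 and 12 CPM and at 10.1, 7.01 and 4.17 CPM with OXPT, with -1.17, which did not pass. Its partner RMI2 stood at 13.9, 12.2 and 16.5 CPM in KO esiCT cells and 10.9, 7.08 and 7.86 CPM with OXPT, without overlap (-0.71). RMI2 did not pass either.

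EME1 (chr17:50373220-50381483, plus strand), the partner of the nuclease MUS81, fell in 2 KO backgrounds. It stood at 25.1, 23.3 and 25.1 CPM in KO esiCT cells and at 18.0, 15.0 and 9.64 CPM with OXPT. In KO esiHDAC4 cells it stood at 19.2, 24.5 and 23.4 CPM, and at 11.8, 13.7 and 11.8 CPM with OXPT. The groups did not overlap in either background. The log2 fold change was -0.78 ± 0.219 (adjusted p = 0.0243) in KO esiCT and -0.84 ± 0.219 (adjusted p = 0.0150) in KO esiHDAC4 cells. It was -0.67 in WT cells and 0.40 in #11 cells, and did not pass there. In KO esiCT cells it was -0.57 (adjusted p = 0.118) without the OXPT library numbered 3, and the call also ended without untreated number 1 (-0.78) or 3 (-0.76). In KO esiHDAC4 cells it ended without OXPT number 3 or untreated number 2 or 3 (adjusted p from 0.0523 to 0.0605). LRRC59 on the other strand shares 16.4% of its exon bases, and with the counts of the reverse strand alone the value in KO esiCT cells was 0.16 (adjusted p = 0.702). MUS81 itself lay between -0.29 and 0.35. The helicase BLM had -0.95 in WT and -0.66 in KO esiCT cells, and the nuclease GEN1 -1.16 and -0.79. None of these passed.

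FANCC (chr9:95099054-95426796, minus strand), a subunit of the Fanconi core complex, was the only Fanconi member called in all 4 backgrounds. It stood at 27.1, 29.0 and 25.8 CPM in KO esiCT cells and at 19.2, 17.2 and 13.6 CPM with OXPT. In WT cells it stood at 27.3, 28.8 and 29.7 CPM, and at 15.0, 14.9 and 13.2 CPM with OXPT. The 2 groups were apart in both genotypes, and the untreated libraries lay close together. The log2 fold change was -0.71 ± 0.172 (adjusted p = 0.00975) in KO esiCT and -0.99 ± 0.172 (adjusted p = 0.000725) in WT cells. In KO esiHDAC4 cells FANCC stood at 24.5, 28.9 and 24.5 CPM and at 15.4, 15.9 and 11.7 CPM with OXPT, with -0.86 (adjusted p = 0.00235). In #11 cells it stood at 28.6, 28.0 and 27.6 CPM and at 15.3, 15.2 and 12.8 CPM with OXPT, with -0.96 (adjusted p = 0.00108). FANCC kept its call with each of the 24 libraries left out in turn. RAD51B did too, but its fall was built into its being tested, so this is no separate evidence for it.

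UBE2T, the E2 enzyme of the route, fell in KO esiHDAC4 cells from 54.4, 69.1 and 60.4 CPM to 39.7, 33.8 and 36.4 CPM, a log2 fold change of -0.74 ± 0.232 (adjusted p = 0.0416). The groups did not overlap, and 8 of the 24 libraries, left out 1 at a time, ended the call (adjusted p up to 0.143). UBE2T in KO esiCT cells stood at 60.6, 64.2 and 54.0 CPM and at 38.9, 29.3 and 46.9 CPM with OXPT, also without overlap, and -0.64 did not pass. FANCA, a core subunit, stood at 68.5, 76.8 and 60.8 CPM in KO esiCT cells and 44, 54.1 and 26.7 CPM with OXPT (-0.72). FANCG, its direct partner, stood at 46.1, 51.9 and 42.9 CPM and 31.9, 33.1 and 12.5 CPM (-0.86). Neither overlapped and neither passed. FANCE had positive values in all 4 backgrounds, from 0.00 to 0.44. The pair to which the route attaches ubiquitin had -0.91 (FANCD2) and -0.77 (FANCI) in KO esiCT and -1.23 and -0.98 in WT cells, without a call. BRIP1, a helicase, had -1.43 in WT cells, and FAN1, a nuclease, -0.15.

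**Figure D4:**
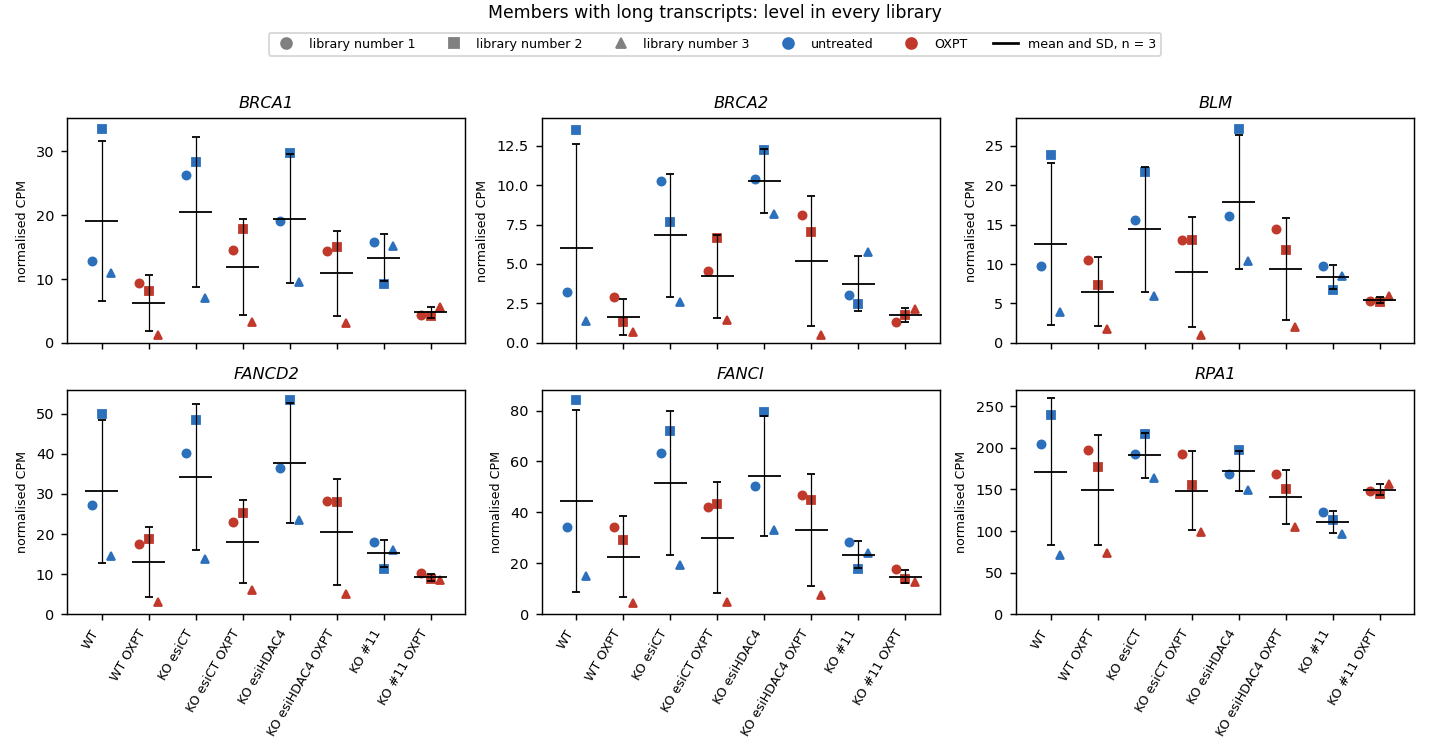
Level (CPM) of BRCA1, BRCA2, BLM, FANCD2, FANCI and RPA1 in every library of the 8 groups, with circles, squares and triangles for numbers 1, 2 and 3, and the mean with SD as bars. In the WT and KO esiCT groups the triangles lie mostly below the other points. In KO esiCT OXPT cells BLM is at 13.1, 13.1 and 0.952 CPM.

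Other genes of the same and neighbouring processes were taken from lists. Of 44 further recombination and Fanconi genes, 37 were tested. With OXPT 3 of the 37 fell in KO esiCT, 4 in WT, 4 in KO esiHDAC4 and 3 in #11 cells. Of all genes, 5.08%, 5.6%, 5.54% and 3.57% fell. In #11 cells 2 of the 37 rose, beside 5.94% of all genes. The median log2 fold change of the 37 was -0.16, -0.41, -0.20 and -0.16, closer to 0 than that of the members in each background. BABAM2, a scaffold of the BRCA1-A complex, fell in all 4 (-1.33 in KO esiCT, adjusted p = 0.00401). FAAP100, which belongs to the Fanconi core complex, fell in 3 of the 4 (-1.29 in KO esiCT, adjusted p = 0.00102).

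Values of many cell cycle genes were lower in the same libraries. Of 21 G2 and mitosis genes tested, 8 fell in KO esiCT, 11 in WT, 11 in KO esiHDAC4 and 5 in #11 cells, with medians of -1.41, -1.63, -1.62 and -0.91. Of all genes, 5.08%, 5.6%, 5.54% and 3.57% fell in these backgrounds. PLK1, a mitotic kinase, fell by 2.21 on the log2 scale in KO esiCT cells (adjusted p = 1.28e-05). Of 27 S phase genes tested, 6 fell in KO esiCT, 8 in WT, 5 in KO esiHDAC4 and 1 in #11 cells, beside the same shares of all genes. Their medians were -0.62, -0.77, -0.78 and -0.29. PCNA, the sliding clamp of replication and also a p53 target, rose in all 4. The summed S phase genes ranged from 2723 to 3763 CPM in KO esiCT cells and from 2121 to 2560 CPM with OXPT. Of 19 p53 targets tested, 15 rose in KO esiCT, 14 in WT, 15 in KO esiHDAC4 and 13 in #11 cells, with CDKN1A, a cell cycle inhibitor, at 3.18 in KO esiCT cells. Of all genes, 6.23%, 5.1%, 6.44% and 5.94% rose. The part of the cell cycle in the members' changes was not tested. Of the 9 markers of other cell types 2 were tested, and ACTA2, a smooth muscle actin, rose in all 4 backgrounds (1.88 in KO esiCT, 1.97 in WT, 1.93 in KO esiHDAC4 and 1.99 in #11 cells), from 1.18 to 3.95 CPM untreated to 2.62 to 11.7 CPM with OXPT. COL1A1 did not pass. The other 7 of these markers summed to at most 2.94 CPM in any library. Among the 7 epithelial markers tested the keratin KRT8 also rose in all 4, by 1.01, 1.02, 1.29 and 1.29. KRT18 rose in KO esiCT and KO esiHDAC4 cells. In each background 2 of the 7, EPCAM and CDH1, had negative values, from -0.48 to -0.01, and did not pass. The part of these markers in the members' changes was not tested.

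E2F letters and gene length were set beside the size of the change, as descriptions. The median log2 fold change of the 6 members with E2F letters was -0.71 in KO esiCT, -1.01 in WT, -0.84 in KO esiHDAC4 and -0.74 in #11 cells. That of the 29 tested members whose window lacked them was -0.36, -0.51, -0.49 and -0.20. The ranges overlapped, from -1.17 to -0.32 with the letters and from -2.94 to 1.34 without in KO esiCT cells. RAD51B and FANCC are also the 2 longest member genes, with 910440 and 327743 bases. The 8 members whose gene spans at least 100 kb had a median of -0.70 in KO esiCT, -0.87 in WT, -0.71 in KO esiHDAC4 and -0.52 in #11 cells, beside -0.30, -0.48, -0.36 and -0.40 for all 2224 such genes. RAD51B, RAD54B and FANCB are among the 8, and the other 5 had medians of -0.71, -0.99, -0.84 and -0.64. The 34 shorter members had -0.38, -0.62, -0.50 and -0.28, beside 0.08, 0.01, 0.10 and 0.07 for 10126 genes. The members' medians were thus lower than those of all genes in both length classes. The rank correlation of log2 fold change with gene span over the 42 members was -0.24, -0.41, -0.38 and -0.36, and over all genes it was -0.34, -0.34, -0.39 and -0.36. The correlations over the members include RAD51B, RAD54B and FANCB. Genes share libraries and are not independent replicates. The part of gene length in the fall of RAD51B and FANCC was not tested.

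**Figure D5:**
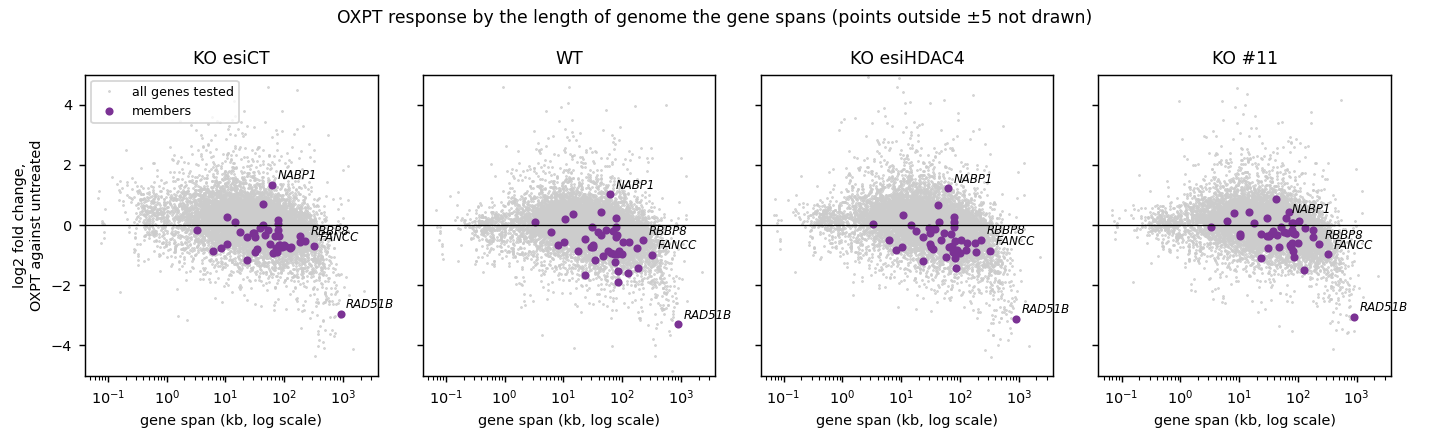
Log2 fold change with OXPT (y axis) against gene span (log axis) for the 42 members tested, in 4 panels by background. RAD51B, with 910440 bases, lies lowest in every panel, and FANCC, with 327743 bases, lies between -0.99 and -0.71. The rank correlations are -0.24, -0.41, -0.38 and -0.36.

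In untreated KO cells 2 members were called higher with #11 than with esiCT (4.76% of those tested, beside 0.51% of all genes called), and none was called lower. Libraries of the same number did not deviate together here (correlations from -0.252 to 0.108). A difference between the sets of libraries cannot be told apart from #11. RAD52 stood at 22.9, 26.1 and 24.9 CPM with #11 and at 12.8, 13.8 and 14.4 CPM with esiCT. NABP1 stood at 44.5, 51.5 and 75.0 CPM and at 23.3, 22.5 and 26.8 CPM. In both, every #11 library lay above every esiCT library, and 31.9% of all genes had no overlap in this comparison. The log2 fold change was 0.85 ± 0.185 (adjusted p = 0.0418) for RAD52 and 1.24 ± 0.226 (adjusted p = 0.0390) for NABP1. Both lay near the threshold: leaving out 1 of the 24 libraries ended the call of RAD52 for 14 of them (adjusted p from 0.0522 to 0.221) and that of NABP1 for 12 (from 0.0529 to 0.213), libraries of #11 and of esiCT among them. The NABP1 levels of untreated #11 cells overlapped those of KO esiCT OXPT cells (50.7 to 69.8 CPM), and with OXPT NABP1 stood at 63.1, 61.2 and 75.2 CPM in #11 cells.

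Without the libraries numbered 3, 11 members differed between #11 and esiCT in untreated KO cells, beside 14.6% of all genes. BRCA2, FANCD2, FANCI, BLM, FANCM, BRCA1, RAD54B and RPA1 were lower, and RAD52, FANCF and NABP1 higher. FANCD2 stood at 18.1, 11.4 and 16.1 CPM with #11 and at 40.3, 48.5 and 13.8 CPM with esiCT, so that the groups overlapped through the esiCT library numbered 3. Its log2 fold change was -1.17 (adjusted p = 0.454) with all libraries and -1.59 (adjusted p = 0.00242) without number 3. FANCI stood at 28.4, 17.9 and 24.0 CPM with #11 and at 63.2, 72.1 and 19.5 CPM with esiCT (-1.14, adjusted p = 0.563, and -1.54, adjusted p = 0.00782). RPA1, the large RPA subunit, stood at 123, 113 and 96.1 CPM and at 192, 217 and 164 CPM, without overlap (-0.78, adjusted p = 0.339, and -0.78, adjusted p = 0.00484). In these groups the summed S phase genes ranged from 1457 to 2750 CPM with #11 and from 2723 to 3763 CPM with esiCT, and 21 of 21 G2 and mitosis genes had negative values. Their part in these differences was not tested.

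Under OXPT, 0 members differed between #11 and esiCT by edgeR's test, where 0.121% of all genes were called. At an unadjusted p under 0.05 there were 3, RAD52 (0.52), RMI2 (0.68) and EME1 (0.55), which is 7.14% beside 10.2% of all genes. DESeq2 also called 0 members, and 126 of all 12356 genes. Without the libraries numbered 3, 6 members were lower with #11, beside 11.5% of all genes: BRCA1, BRCA2, FANCI, FANCD2, BLM and EXO1. BRCA1 then had -1.95 (adjusted p = 0.00787), and its values were 4.39, 4.19 and 5.69 CPM with #11 and 14.6, 17.8 and 3.33 CPM with esiCT. The change with OXPT itself differed between #11 and esiCT for 0 members, as for 0% of all genes. At an unadjusted p under 0.05 there were 3, EME1 (1.18, adjusted p = 0.371), NABP1 (-1.12, adjusted p = 0.381) and FANCG (0.98, adjusted p = 0.692), again 7.14%, beside 6.98% of all genes. DESeq2 called 1, EME1, and 36 of all 12356 genes. Without the libraries numbered 3 NABP1 was called, at -1.22 (adjusted p = 0.0212), beside 2.01% of all genes. So for NABP1 the changes with OXPT in KO esiCT and #11 cells (1.34 and 0.22 with all libraries) differed by edgeR's test in that setting and not with all libraries.

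Silencing of HDAC4 changed 0 members in untreated cells and 0 under OXPT, beside 0.00809% and 0% of all genes. At an unadjusted p under 0.05 there was 1 member each time, RPA2, with -0.42 and -0.40. This is 2.38% of members, beside 3.19% and 3.08% of all genes, and so near the background. DESeq2 called 0 members both times, and 40 and 9 of all 12356 genes. Log2 fold changes were negative for 11 of 42 members in untreated cells and 17 under OXPT, beside 50.4% and 49.2% of all genes. Without the libraries numbered 3 they were negative for 16 and 21. The calls were also 0 and 0 without the libraries numbered 3, beside 0.583% and 0.00809% of all genes. Libraries of the same number deviated together here too. With the number as a block in only the 2 groups compared, DNA2 was called higher with esiHDAC4 in untreated cells (0.60, adjusted p = 0.0301), where 4.57% of all genes were called, and with the block over all libraries no member was. RPA2 stood at 52.0, 69.5 and 55.1 CPM in KO esiHDAC4 cells and at 76.5, 86.6 and 72.8 CPM in KO esiCT cells. With OXPT it stood at 42, 43.1 and 48.9 CPM and at 61.1, 50.5 and 65.7 CPM. The groups did not overlap in either state, as for 21.7% and 4.61% of all genes, but the adjusted p was 1.00 in both. The change with OXPT differed between esiHDAC4 and esiCT for 0 members and 0% of all genes, also without the libraries numbered 3. At an unadjusted p under 0.05 there were 0 members, beside 0.154% of all genes, and DESeq2 called 0 members and 0 of all genes.

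Between KO esiCT and WT cells, 0 members differed without OXPT, where 0.291% of all genes were called, and 0 with OXPT, where 0.138% were. Members at an unadjusted p under 0.05 were 0 and 1, the latter RMI2 (-0.59), beside 5.74% and 5.4% of all genes. DESeq2 called 0 members both times, and 117 and 30 of all 12356 genes. Leaving out the libraries numbered 3 also gave 0 and 0 calls, beside 0.437% and 0.308% of all genes. At an unadjusted p under 0.05 there were then 3 and 6 members, 7.14% and 14.3% beside 7.54% and 5.56% of all genes. With all libraries 19 of 42 members had negative values without OXPT and 12 with it, beside 54.3% and 44.3% of all genes. Without the libraries numbered 3 these were 22 and 6. Under OXPT the groups then did not overlap for 25 members, 59.5% beside 34.5% of all genes. The change with OXPT differed between the genotypes for 0 members and 0% of all genes, with and without the libraries numbered 3. There were 0 members at an unadjusted p under 0.05 with all libraries, beside 1.63% of all genes. DESeq2 called 0 members and 0 of all genes. For RAD51B the difference of the changes was 0.35 (95% interval -0.65 to 1.35). For FANCC it was 0.28 (-0.22 to 0.79) and for NABP1 0.31 (-0.35 to 0.97). These intervals are wide, and do not show that the genotypes responded alike. The esiRNA of the WT libraries is not known here and cannot be told apart from genotype.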

How the data were processed

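PolyA RNA of 36 HCT-116 libraries was sequenced, and the authors deposited raw read counts per gene for each, in the layout of STAR gene counts with unstranded, forward and reverse columns. The submitters' processing notes name Trimmomatic 0.39, STAR 2.7.11a and hg38. The annotation release is not given in the sources used here. Although the labels name a stranded preparation, reverse and forward totals had ratios of 1.00 to 1.02, so the unstranded column was used and antisense genes cannot be told apart. Rows for unmapped, multimapping (3.17% to 3.91%), ambiguous (10.6% to 12.2%) and unassigned reads (2.58% to 5.79%) stayed out of library sizes. Libraries held 10725966 or more counts, but the members tested had from 3 counts (RAD51B) upward, so counting error limits those of low counts and the number of libraries limits all.

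Groups came from the labels alone. Genes were matched to GENCODE 44, 62130 of 62757 identifiers with their version. Counts were tested in R 4.3.3 with edgeR 4.0.16 (TMM, quasi-likelihood F test) in 1 fit of all 24 assigned libraries, over 12356 genes with a mean of at least 64 counts in a group. Calls were made at a p under 0.05, adjusted by Benjamini-Hochberg, with more than a 1.5-fold change. There were 13 comparisons. Each SE was taken as the log2 fold change divided by the root of the F statistic. Libraries of 1 group differed beyond sampling noise in every pair. The numbers pair libraries of 2 groups where all correlations of their deviations from group means exceed 0.1. This held for the 4 OXPT comparisons (0.176 to 0.688), both silencing and both genotype comparisons, and not for #11 against esiCT. DESeq2 1.42.0, other filters, normalizations, strand columns and blocks, and each library left out, were alternatives. The main edgeR fit was also run on simulated counts, read out for OXPT in KO esiCT and WT cells. The alternative fits were not run on simulated counts.

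Members and gene lists were chosen with earlier results of these data known. All members may be named. Library values are given for members called in both KO esiCT and WT cells, then those with the smallest adjusted p in KO esiCT cells until 12, and those called in comparisons other than OXPT. RAD51B, NABP1, FANCC, EME1, RAD51C, RMI2, UBE2T, FANCG, RMI1, FANCA, RPA2, RPA3 and RAD52 met this, and values of XRCC3, BARD1, BRCA1, FANCD2, FANCI, RPA1 and BLM were added after they were seen.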

Additional observations from a re-analysis of the deposited data

Results flagged for a closer look

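In the 12 unassigned WT libraries, which the labels call both treated and untreated with OXPT, the medians of RAD52 and NABP1 stood above the highest untreated WT library. RAD52 had a median of 20.6 CPM (15.1 to 29.0), where the highest untreated WT library had 18.0, and 3 of the 12 did not exceed it. NABP1 had a median of 45.3 CPM (29.1 to 65.2), where the highest untreated WT library had 35, and 1 of the 12 did not exceed it. The 12 include libraries titled OXPT. These libraries entered no comparison, and the differences were not tested.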

How the results depend on the processing

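The counts of members called moved with several choices, and the cause was not tested. In KO esiCT cells with OXPT, where 5 were called, the count was 2 with the reverse-strand column or with only the groups compared, 3 without a count filter or with the minimum in every group, and 8 with DESeq2. Of all 12356 genes, DESeq2 called 1859 there and the main fit 1398. In WT cells, where 7 were called, it was 14 without a count filter and 1 with only the groups compared. In KO esiHDAC4 cells (7) it was 4 with the reverse-strand column, and in #11 cells (3) it was 11 with only the groups compared. For #11 against esiCT it was 1 with the reverse-strand column without OXPT (2) and 1 without a count filter under OXPT (0), and DESeq2 gave 1 for the difference of the changes with OXPT (0). DESeq2 called 36 of all 12356 genes for that difference. Without the libraries numbered 3 it was 23 in WT and 11 in #11 cells with OXPT, beside 20.9% and 22.9% of all genes. For #11 against esiCT it was then 11 without OXPT, 6 with it and 1 for the difference of the changes. Of all genes, 14.6%, 11.5% and 2.01% were called in these 3 comparisons. With the replicate block it was 10 in KO esiCT, 11 in WT, 11 in KO esiHDAC4 and 4 in #11 cells with OXPT. Of all genes, 15.7%, 15.3%, 16.7% and 13.9% were called there. With the block in only the groups compared it was 6, 3, 13 and 12, beside 12%, 5.55%, 18.9% and 25.1% of all genes. It was then 1 for silencing without OXPT (DNA2, beside 4.57%) and 0 for #11 without OXPT (beside 0.728%). The block over all libraries changed no other count. With each library left out, the counts ranged from 3 to 7 in KO esiCT, 4 to 9 in WT, 4 to 10 in KO esiHDAC4 and 2 to 3 in #11 cells with OXPT, from 0 to 2 for #11 without OXPT, and stayed at 0 in the other comparisons. Where a group was left with 2 libraries, they were assumed to vary like the others. Shares of all genes are not given here for the reverse-strand column, the other filters, only the groups compared or single libraries left out. Those counts describe the settings and are no result about the members.

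Of the 24 calls of single members, 13 were lost without at least 1 library, and the 11 of RAD51B, FANCC and NABP1 with OXPT were kept without each. Those of RAD51B, whose fall was built into its being tested, are included here and in the counts below and are no separate evidence. Single fits kept direction and call in 491 of 576 with a library left out and 165 of 207 other alternatives, and 1 reversed, EME1 in KO esiCT cells with the reverse-strand column (0.16). With 3 libraries a group, members of low counts such as BRCA2 and FANCM had wide intervals.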

Other observations

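In the same 12 libraries, named here by their titles, RAD51B was at 6.52, 6.69 and 6.38 CPM in those titled WT siHDAC4 UNT and at 1.08, 0.535 and 0.428 CPM in those titled WT siHDAC4 OXPT. It was at 2.58, 3.86 and 2.29 CPM in those titled WT PROTAC11 and at 0.530, 0.748 and 0.598 CPM in those titled WT PROTAC11 OXPT. RAD51C ranged from 58.3 to 89.8 CPM over these libraries (median 67.0) and FANCC from 13.0 to 31.8 CPM (median 20.4). BRCA1 ranged from 1.88 to 38.9 CPM (median 4.95) and FANCI from 2.65 to 79.5 CPM (median 7.88).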
